A study of Homo sapiens with 8 samples.

Results

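The genes described here are the β-thymosins TMSB10 and TMSB4X and the actin isoforms ACTA2, ACTG2, ACTB, ACTG1 and ACTC, 7 genes chosen by name. The deposited table held a clone for 6 of the 7, with 1 clone printed at 1 spot for each gene, among 13340 clones in all. All 6 clones were among the 13186 that could be tested. RNA of ACTG1 was not analysed here, and ACTC is the older symbol of ACTC1. RNA of A2780 cells, a human ovarian cancer line, was measured on spotted cDNA arrays that carried a cisplatin-resistant derivative (CPR20, CPR40, CPR55 or CPR70) in the Cy5 channel and the cisplatin-sensitive parental line CPR00 in the Cy3 channel. There were 8 arrays, 2 for each of the 4 derivatives, all in the same dye orientation. All lines were grown in ordinary culture medium with serum, and the labels name no drug in the medium of any group. Each derivative is 1 cell line. Whether the arrays within a derivative stem from different cultures is not stated, so the p-values below measure the spread between these arrays, which may be technical.

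Actin is the main structural protein of the cytoskeleton and moves between a pool of free monomers and filaments. β-thymosins are small proteins that bind free actin monomers and hold them in reserve, while profilin passes monomers on to growing filaments. Of the 6 measured isoforms and partners, ACTB encodes β-actin, a cytoplasmic actin found in nearly all cells, ACTA2 and ACTG2 encode the α and γ actins of smooth muscle, and ACTC1 encodes the α actin of the heart. ACTA2 is also known as a marker of myofibroblasts, and TMSB10 and TMSB4X are widely expressed in tumour cells. The question set by the design is whether RNA of these genes differed between each resistant derivative and the sensitive line, and whether the thymosins and the actins changed alike.

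In the mean of the 4 derivatives, 5 of the 6 clones were higher than in parental cells and 0 were lower at an adjusted p under 0.05 (limma, Benjamini-Hochberg adjustment over all clones). Over all 13186 clones, 6.33% were called higher and 4.62% lower in that comparison. The genes were chosen with earlier results of these data known, so their share is not a test against that of all clones. TMSB10 had the highest estimate of the 6, with a log2 ratio as read of 3.55 ± 0.14 (SE, 7 arrays, adjusted p = 4.3e-05 in limma), which was rank 4 of 13186 clones from the top. Its parental reading did not stand above the empty spots on any array, so the size of its rise is not fixed. With a floor set under the parental reading, described below, the rise was 9.80-fold. ACTA2 rose by 2.25 ± 0.21 (8 arrays, rank 27, adjusted p = 0.000667 in limma) and TMSB4X by 1.55 ± 0.23 (8 arrays, rank 88, adjusted p = 0.00479 in limma). ACTG2 and ACTC rose by less, and ACTB did not pass. Arrays of bulk RNA cannot tell more RNA per cell apart from more cells that express a gene.

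Sequences of the start regions are shown because several actin genes are known targets of serum response factor, which binds a site named the CArG box. Its part in the rises was not tested. The sequences are the 250 bases before the annotated start, from RefSeq (GRCh38.p14), which gave start regions for 6 of the 7 genes, with 9 windows in all. The gene without one was ACTB, whose clone did not rise, so its start region cannot be set beside those of the clones that did. TMSB10 lies at chr2:84905406-84905655 on the plus strand, TMSB4X at chrX:12974860-12975109 on the plus strand, and ACTG2 at chr2:73892758-73893007 on the plus strand. The inner of the pair of ACTA2 starts lies at chr10:88952774-88953023 on the minus strand, and the outermost of the 3 ACTC1 starts at chr15:34795550-34795799 on the minus strand. Capitals mark a CArG box, a CArG box with 1 letter changed, or TATAAA on either strand.
TMSB10: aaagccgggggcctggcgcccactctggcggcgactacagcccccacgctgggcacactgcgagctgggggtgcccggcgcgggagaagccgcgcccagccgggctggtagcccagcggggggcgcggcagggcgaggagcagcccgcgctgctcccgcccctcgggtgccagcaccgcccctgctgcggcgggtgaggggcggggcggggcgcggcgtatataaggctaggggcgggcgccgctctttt
TMSB4X: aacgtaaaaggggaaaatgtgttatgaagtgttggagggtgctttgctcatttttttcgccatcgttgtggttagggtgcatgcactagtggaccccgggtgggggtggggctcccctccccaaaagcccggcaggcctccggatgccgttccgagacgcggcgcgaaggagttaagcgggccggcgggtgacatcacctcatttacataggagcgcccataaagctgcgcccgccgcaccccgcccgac
ACTA2 inner start: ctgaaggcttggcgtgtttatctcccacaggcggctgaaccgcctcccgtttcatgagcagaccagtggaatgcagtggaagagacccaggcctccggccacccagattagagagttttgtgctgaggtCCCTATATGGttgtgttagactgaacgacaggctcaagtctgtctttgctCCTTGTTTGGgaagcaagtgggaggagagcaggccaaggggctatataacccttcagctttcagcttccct
ACTG2: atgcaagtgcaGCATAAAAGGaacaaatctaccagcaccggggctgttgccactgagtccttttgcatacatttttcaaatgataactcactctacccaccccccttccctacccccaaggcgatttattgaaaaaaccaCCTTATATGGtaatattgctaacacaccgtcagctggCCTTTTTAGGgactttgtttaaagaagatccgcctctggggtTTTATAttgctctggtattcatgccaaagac
ACTC1: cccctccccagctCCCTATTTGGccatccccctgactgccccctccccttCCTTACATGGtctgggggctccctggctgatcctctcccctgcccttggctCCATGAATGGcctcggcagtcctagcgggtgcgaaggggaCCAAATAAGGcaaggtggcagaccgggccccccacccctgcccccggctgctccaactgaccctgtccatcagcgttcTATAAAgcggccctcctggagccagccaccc

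In windows of 300 bases around the start (250 before and 50 after), the ACTG2 window held 2 CArG boxes, which began 110 and 73 bases before the start. The ACTC1 window shown held 1, beginning 109 bases before the start, and both windows held TATAAA (on the reverse strand in ACTG2) 31 bases before it. The ACTA2 window shown held no exact CArG box and 2 with 1 letter changed, 121 and 71 bases before the start. For ACTA2 and ACTC1 the window shown is the one with the most such matches: the other ACTA2 window held none, exact or with 1 letter changed, and of the other 2 ACTC1 windows neither held an exact one and 1 held one with 1 letter changed. The ACTG1 window, not shown, held 1 exact CArG box, beginning 94 bases before the start. Neither thymosin window held a CArG box, exact or with 1 letter changed. The TMSB10 window held GGGCGG, the letters of a GC box, 5 times over both strands, with 1 overlap, and the TMSB4X window held it 1 time. Over all 35116 windows of this length, 1.29% held an exact CArG box, 17.9% one with 1 letter changed, 11.5% TATAAA and 45% GGGCGG, each on either strand. These matches describe letters in a window and are not binding data.

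TMSB10, whose product sequesters actin monomers, lies on chromosome 2 (GRCh38.p14, 84905656 to 84906671). Its spot read 3730.2 and 3082 in CPR20, against 217 and 263 in the parental channel of the same arrays, and 3803 and 2277 in CPR40, against 429 and 103.9. On the CPR55 replicate 2 array it read 3754 in the derivative and 73.8 in parental cells, and the spot was not found on the CPR55 replicate 1 array. The CPR70 arrays read 4404 and 5721 in the derivative, against 411 and 402 in parental cells. The derivative reading lay above the parental reading on all 7 arrays, with no overlap between the 2 channels over arrays. After loess normalisation within each array, the log2 ratios were 3.10 and 2.86 in CPR20, 2.80 and 3.56 in CPR40, 4.39 in CPR55, and 3.61 and 3.68 in CPR70. These stood between rank 3 and rank 31 from the top of all clones on their arrays.

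TMSB10 was called higher in each derivative taken alone. The estimate was 2.98 ± 0.25 in CPR20 (adjusted p = 0.00665 in limma), where 0.334% of all clones were called higher. It was 3.18 ± 0.25 in CPR40 (adjusted p = 0.00408 in limma, 0.319% of clones called higher). In CPR55 it was 4.39 ± 0.35 (adjusted p = 0.00486 in limma, 0.417% called higher), which rests on 1 array with a spread borrowed from the other groups. In CPR70 it was 3.65 ± 0.25 (adjusted p = 0.00178 in limma, 0.849% called higher). With the authors' calibrated ratio in place of loess, none of these 4 calls of TMSB10 passed (adjusted p from 0.116 to 0.356 in limma), while its call in the mean did. Leaving out an array leaves its derivative with 1, whose spread is then taken from the other groups. The CPR20 estimate was 2.86 without CPR20 replicate 1 and 3.10 without replicate 2, with the call lost in both (adjusted p = 0.126 and 0.116 in limma), and the CPR70 estimate was 3.61 without CPR70 replicate 2 (adjusted p = 0.0722 in limma).

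The parental reading of TMSB10 did not stand above the empty spots on any of the 7 arrays. The level used was their median plus 2.6 scaled median absolute deviations. The size of the TMSB10 ratios is thus not fixed by the data. With the parental channel set no lower than the dimmest clone above that level after normalisation, TMSB10 was 9.80-fold higher over the derivatives. With this floor it was 7.39-fold in CPR20, 8.33-fold in CPR40, 18.4-fold in CPR55 and 11.2-fold in CPR70. On CPR20 replicate 2, CPR40 replicate 1 and CPR70 replicate 1 the floor left the ratio as read. The parental readings there were under the empty-spot level, so these folds are not strict lower bounds. With unscaled deviations, a level chosen after seeing the data, the parental reading lay above the empty spots on 3 of the 7 arrays. The derivative reading was above on 7 of 7.

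**Figure D1:**
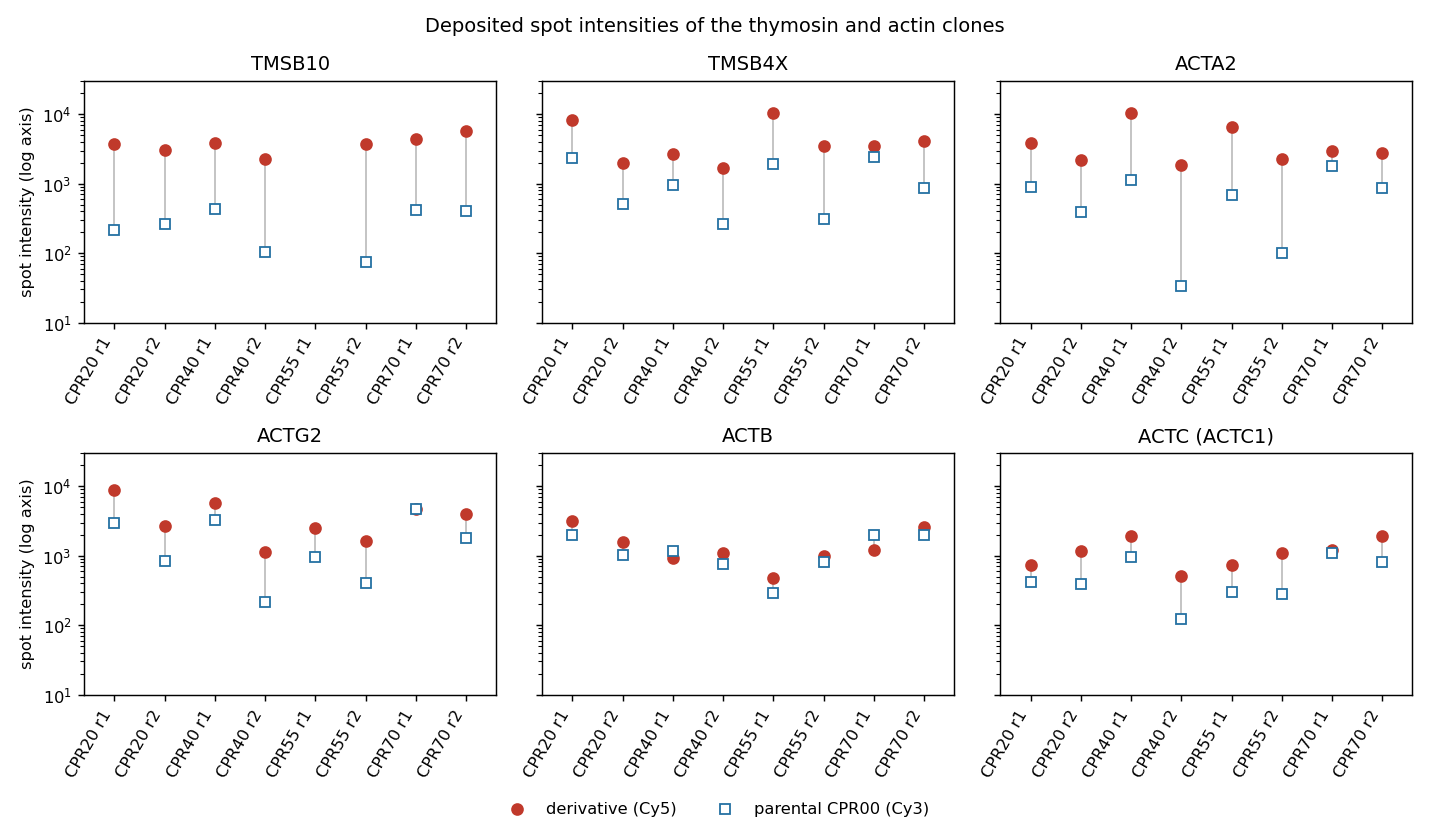
Deposited spot intensity (log axis) of each clone on the 8 arrays, with the derivative in Cy5 as filled circles, parental CPR00 in Cy3 as open squares, and a line joining the channels of an array (r1 and r2 are replicates 1 and 2). TMSB10 has no point on CPR55 replicate 1, where its spot was not found, and its parental readings run from 73.8 to 429 under derivative readings from 2277 to 5721.

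TMSB4X encodes thymosin β4, the most abundant monomer-sequestering protein in many cell types, and lies on chromosome X (12975110 to 12977223). The spot read 8216 and 1967 in CPR20, against 2316 and 509 in parental cells, and 2677 and 1684 in CPR40, against 968.5 and 263. It read 10413 and 3489.7 in CPR55, against 1935.5 and 306, and 3535 and 4052 in CPR70, against 2440.3 and 873. Both channels stood above the empty spots on all 8 arrays, and the derivative was the brighter on each, though the ranges of the channels overlap between arrays. The log2 ratios after loess were 0.79 and 1.39 in CPR20, 1.19 and 2.12 in CPR40, 1.24 and 2.75 in CPR55, and 0.76 and 2.16 in CPR70. Loess moved these ratios: on CPR20 replicate 1 the reading ratio of 3.55 became 1.72-fold. In the mean of the derivatives TMSB4X was 2.93-fold higher. Taken alone, no derivative passed, with 1.09 ± 0.45 in CPR20, 1.65 ± 0.45 in CPR40, 1.99 ± 0.45 in CPR55 and 1.46 ± 0.45 in CPR70 (adjusted p from 0.136 to 0.490 in limma). With the replicate number of the array as a block, TMSB4X passed in CPR40, CPR55 and CPR70 (adjusted p = 0.0251, 0.0161 and 0.0228 in limma) and not in CPR20. With median centring it passed in CPR55 (adjusted p = 0.0209 in limma).

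ACTA2, smooth muscle α-actin, lies on chromosome 10 (88935074 to 88991337). Its spot read 3867.5 and 2217 in CPR20, against 883.5 and 391.9 in parental cells, and 10485 and 1839 in CPR40, against 1125 and 34.1. In CPR55 it read 6542.5 and 2299, which was 9.42 and 22.8 times the parental reading. In CPR70 it read 2969 and 2731, against 1823 and 863. The derivative was brighter on all 8 arrays, and the parental reading was not well above background on the CPR40 and CPR55 replicate 2 arrays, which gave the 2 highest ratios. The log2 ratios were 1.15 and 1.90 in CPR20, 2.86 and 4.07 in CPR40, 2.03 and 3.41 in CPR55, and 0.95 and 1.62 in CPR70. As read, the mean rise corresponds to 4.75-fold, which includes the 2 arrays with a dim parental reading.

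Taken by derivative, ACTA2 passed in CPR40 (3.47 ± 0.41, adjusted p = 0.0151 in limma) and in CPR55 (2.72 ± 0.41, adjusted p = 0.0347 in limma). It did not pass in CPR20 (1.52 ± 0.41, adjusted p = 0.237 in limma) or CPR70 (1.28 ± 0.41, adjusted p = 0.218 in limma), but did in both with the replicate number as a block (adjusted p = 0.0269 and 0.0256 in limma). The CPR40 call was lost under 4 of 18 alternatives, among them without CPR40 replicate 2 (2.86, adjusted p = 0.132 in limma). The CPR55 call was lost under 10 of 18, among them without CPR55 replicate 1 (adjusted p = 0.0900 in limma) and without CPR55 replicate 2 (0.139). Without either CPR20 array or either CPR70 array it was also lost (adjusted p from 0.0562 to 0.0726 in limma).

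ACTG2, smooth muscle γ-actin, lies on chromosome 2 (73893008 to 73919865) and rose by 0.86 ± 0.20 in the mean (8 arrays, adjusted p = 0.0305 in limma). The derivative channel read between 1131 and 8887 with a median of 3301, against 215 to 4716 with a median of 1389.8 in the parental channel. The log2 ratios were 0.54 and 1.16 in CPR20, 0.53 and 1.79 in CPR40, 0.25 and 1.33 in CPR55, and 0.19 and 1.09 in CPR70. All 8 lay above 0, and within each derivative replicate 2 lay above replicate 1. The call rests on single arrays: the adjusted p in limma was 0.0597 without CPR20 replicate 1, 0.102 without CPR20 replicate 2, 0.0740 without CPR40 replicate 2, 0.0757 without CPR55 replicate 2 and 0.0963 without CPR70 replicate 2. It was also lost with the authors' calibrated ratio (0.0733) and with no offset (0.0514). Taken alone, no derivative passed for ACTG2 (adjusted p from 0.294 to 0.553 in limma). With the replicate number as a block CPR40 did (adjusted p = 0.0384 in limma).

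ACTC, named ACTC1 today, encodes cardiac α-actin on chromosome 15 (34790230 to 34795549) and rose by 0.84 ± 0.15 in the mean (8 arrays, adjusted p = 0.0111 in limma). The spot read 508 to 1938 in the derivatives with a median of 1125, against 124 to 1084 with a median of 409 in parental cells. The parental reading was above background on 5 of the 8 arrays and the derivative reading on 8. The log2 ratios were 0.25 and 0.98 in CPR20, 0.78 and 1.21 in CPR40, 0.48 and 1.24 in CPR55, and 0.55 and 1.20 in CPR70. As for ACTG2, all 8 were above 0 and replicate 2 was the higher in each derivative. With the authors' calibrated ratio ACTC did not pass (adjusted p = 0.0969 in limma). No derivative passed alone (adjusted p from 0.239 to 0.563 in limma), and with the replicate number as a block CPR40 and CPR70 did (0.0419 and 0.0409).

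ACTB, cytoplasmic β-actin and a gene often used as a loading reference, lies on chromosome 7 (5527148 to 5530601). It read 481 to 3142.5 in the derivatives with a median of 1149, against 290.1 to 1989 with a median of 1093 in parental cells. The log2 ratios were -0.30 and 0.13 in CPR20, -0.48 and 0.18 in CPR40, 0.07 and -0.33 in CPR55, and -0.38 and 0.39 in CPR70. Each derivative thus had 1 array on each side of 0. The mean was -0.09 ± 0.14 (95% confidence interval -0.41 to 0.23, adjusted p = 0.721 in limma), and turned to 0.049 with median centring of the arrays. The interval bounds a change of β-actin RNA in the mean; it does not show that there was none. Actin genes share much of their coding sequence, and a cDNA clone can bind transcripts of a related gene. How much of the signal of each actin clone came from another isoform was not tested.

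**Figure D2:**
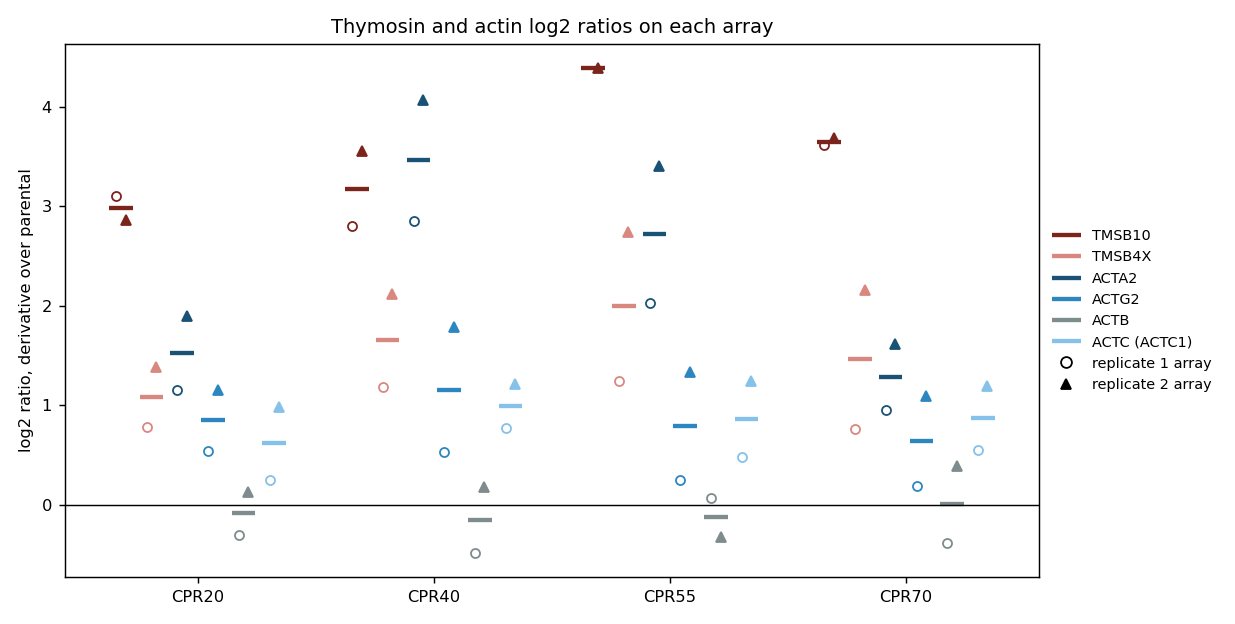
Log2 ratio of derivative over parental cells after loess (vertical axis) for each clone on each array, grouped by derivative, with replicate 1 as open circles, replicate 2 as triangles and the limma estimate as a bar. As read, TMSB10 is the highest clone in CPR20, CPR55 and CPR70 and ACTA2 in CPR40, and ACTB lies around 0 in all 4 derivatives. Every TMSB10 point rests on a parental reading not above the empty spots, so its height is uncertain.

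No clone of the 6 was shown to differ among the 4 derivatives. In the test of any difference among them 0% of clones passed in limma (0 of 13186, smallest adjusted p 0.277, and 344 clones or 2.61% at an unadjusted p under 0.05), and the 6 clones had an adjusted p of 0.9999. ACTA2 had the largest spread of estimates as read, from 1.28 in CPR70 to 3.47 in CPR40, a span of 2.18, with an unadjusted p of 0.0183 in limma. The CPR40 replicate 2 ratio in it was 4.07 as read and 2.98 with the floor under its dim parental reading, so the ACTA2 span is not fixed. With the replicate number as a block, the adjusted p in limma was 0.484 for ACTA2 and 0.840 to 0.987 for the others. For TMSB10 the span as read was 1.41, from 2.98 in CPR20 to 4.39 in CPR55 (unadjusted p = 0.0506 in limma). Its parental reading was not above the empty spots in any derivative, so neither this span nor the order of the derivatives is fixed. The spans of TMSB4X, ACTG2, ACTC and ACTB were 0.91, 0.52, 0.38 and 0.15.

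CPR70 minus CPR20, the derivatives with the highest and lowest number in their names, also gave 0% of clones in limma (0 of 13186, smallest adjusted p 0.352, and 260 or 1.97% at an unadjusted p under 0.05). TMSB10 was at 0.67 ± 0.35 as read in that difference (95% confidence interval -0.16 to 1.49) and TMSB4X at 0.37 ± 0.64 (-1.11 to 1.85). ACTA2 was at -0.24 ± 0.59 (-1.59 to 1.11). ACTG2, ACTB and ACTC were at -0.21, 0.09 and 0.26. The estimates do not follow the order of the numbers for any of the 3 clones that rose most: the estimates of TMSB10 (as read) and TMSB4X were highest in CPR55, and that of ACTA2 in CPR40.

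**Figure D3:**
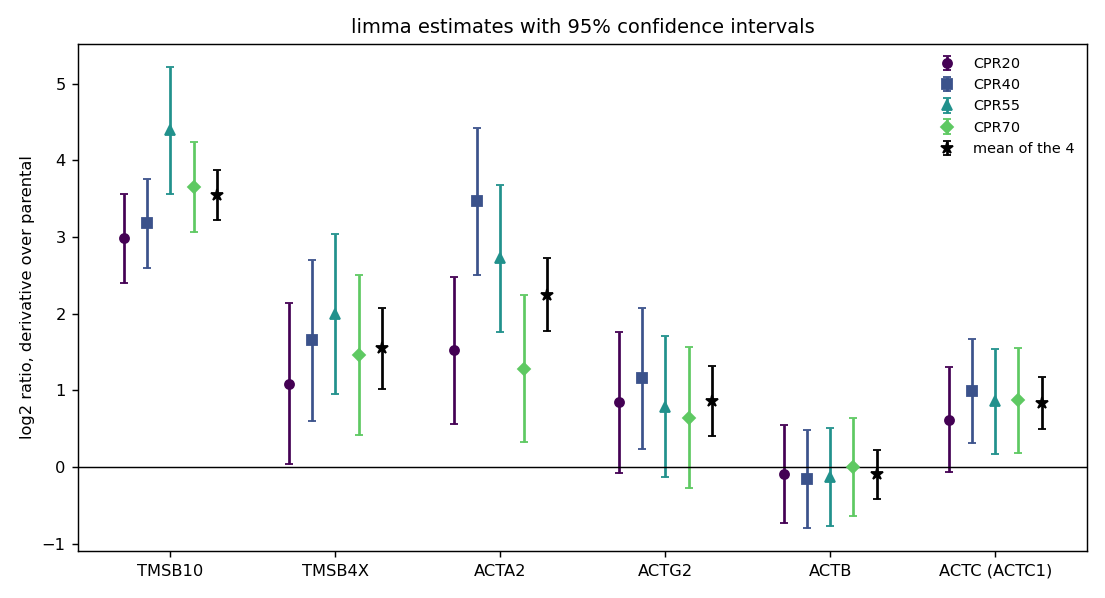
limma estimates of the log2 ratio of derivative over parental cells with 95% confidence intervals, for CPR20, CPR40, CPR55, CPR70 and their mean. The intervals of the mean lie above 0 for TMSB10, TMSB4X, ACTA2, ACTG2 and ACTC and include 0 for ACTB, and the interval of TMSB10 in CPR55 rests on 1 array.

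The replicate 1 and the replicate 2 arrays formed separate sets, and the ratios of these clones were mostly higher in the replicate 2 set. Over the 4 derivatives the replicate 2 ratio was above the replicate 1 ratio in 4 of 4 for TMSB4X, ACTA2, ACTG2 and ACTC, in 3 of 4 for ACTB, and in 2 of the 3 with both values for TMSB10. TMSB10 was at 3.62 in the replicate 2 arrays alone and 3.17 in the replicate 1 arrays alone (adjusted p = 0.00121 and 0.00394 in limma). The replicate 1 set has no CPR55 value for TMSB10, and within derivatives replicate 2 minus replicate 1 was 0.20. TMSB4X was at 2.10 and 0.99 (0.00381 and 0.0182) and ACTA2 at 2.75 and 1.75 (0.0112 and 0.0311), so these 3 genes passed in each set. ACTG2 was at 1.34 and 0.38 (adjusted p = 0.00407 and 0.136 in limma) and ACTC at 1.16 and 0.51 (0.00212 and 0.0758), and passed in the replicate 2 set only. ACTB was at 0.09 and -0.28 (0.670 and 0.279). The difference between the sets itself did not pass for any of the 6 (adjusted p from 0.0738 to 0.685 in limma), where 8 of 13148 clones passed. What the sets stand for is not given in the labels, and its part in these results was not tested.

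Within an array, the average thymosin ratio lay above the average actin ratio. The mean log2 ratio of TMSB10 and TMSB4X minus that of ACTA2, ACTG2, ACTB and ACTC was 1.53 and 1.08 in CPR20, 1.07 and 1.03 in CPR40, 2.15 in CPR55 (1 array), and 1.86 and 1.85 in CPR70. The difference as read lay above 0 on 7 of 7 arrays, with a mean of 1.51 ± 0.46 (SD, 7 arrays). From the fitted values it was 1.59, between 1.49 and 1.71 under 10 alternatives. The parental reading of TMSB10 was not above the empty spots on any array, so the size of the difference is not fixed. All 4 actins stood above background in parental cells on 4 of the 7 arrays. On those 4 the difference was 1.07 to 1.86 with the floor under TMSB10, which is not a strict minimum. On the other 3 an actin reading was also not above background in parental cells. This average hides the order of the genes, since ACTA2 and ACTB were far apart. ACTA2 lay above ACTB on 8 of 8 arrays, by 2.34 ± 1.13 on the log2 scale (SD).

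ACTA2 lay above TMSB4X on 7 of 8 arrays, also with the floor under ACTA2 on the 2 arrays where its parental reading was dim. TMSB4X minus ACTA2 was -0.70 ± 0.80 (SD, 8 arrays), and only on CPR70 replicate 2 was it above 0, at 0.54. The parental reading of ACTA2 stood above background on 5 arrays with a TMSB10 value. TMSB10 with the floor lay above ACTA2 on 4 of these, by 0.96 to 2.66. On CPR40 replicate 1 it lay 0.06 under ACTA2. On the CPR40 and CPR55 replicate 2 arrays both parental readings were dim, so no order can be given on these 3. Between the thymosins, TMSB10 exceeded TMSB4X on 7 of 7 arrays, by 1.19 to 2.85 with the floor (1.84 ± 0.54 as read, SD). These gaps are not strict minima. TMSB4X exceeded ACTB on 8 of 8, by 1.64 ± 0.66 (SD), and ACTB had the lowest ratio of the measured members on all 8 arrays. The closest pair was ACTG2 and ACTC, with a root mean square difference of 0.30 over 8 arrays. These are differences of ratios within an array, given without a test, since the genes were chosen with results known.

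**Figure D4:**
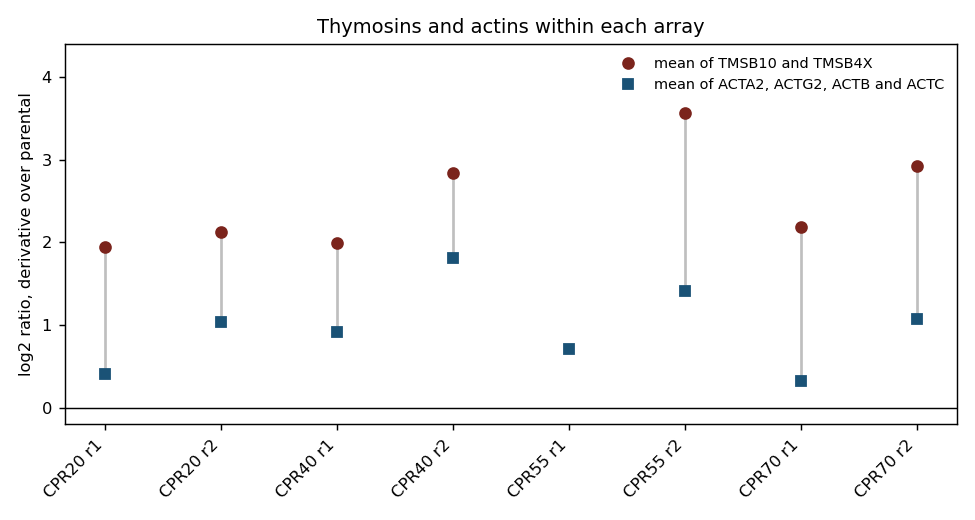
Mean log2 ratio of the 2 thymosins (circles) and of the 4 actins (squares) on each of the 8 arrays, joined by a line whose length is the difference (r1 and r2 are replicates 1 and 2). As read, the thymosins lie 1.03 to 2.15 above the actins on the 7 arrays with both, where the parental reading of TMSB10 was not above the empty spots. CPR55 replicate 1 has no thymosin value because the TMSB10 spot was not found.

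Clones with the most similar ratios over arrays were ranked by root mean square difference on the log2 scale. For TMSB4X the nearest of 10654 clones was that of TMSB4Y, its near-identical relative, at 0.36 over 8 arrays. Next came B2M, the invariant chain of MHC class I, at 0.39, GTF3A, a transcription factor for 5S ribosomal RNA genes, at 0.42, GNB2, a G protein β subunit, at 0.44 and CST3, the protease inhibitor cystatin C, at 0.44. The median over all clones was 1.73. Binding of TMSB4X transcripts to the TMSB4Y clone was not tested, so the pair may not be independent measurements. That clone is therefore not read here as a measure of TMSB4Y RNA.

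For TMSB10 the nearest over 7 arrays included MGC3032 at 0.61, both clones of ATP11B, a phospholipid-transporting ATPase, at 0.87 and 0.89, and TIMP1, an inhibitor of metalloproteinases, at 1.10. The median over 9423 clones was 3.48. For ACTA2 they were MGC2668 at 0.83, the zinc finger gene ZNF41 at 0.84, CHMP4A, of the ESCRT membrane-scission machinery, at 0.87, the metalloproteinase MMP10 at 0.87 and MGC10905 at 0.89. The median there was 2.49. None of the other 5 measured genes was among the 5 nearest of these 3.

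Other genes of the actin system were read from 7 lists. Of 183 genes in these lists, 136 were measured, of which 13 rose, 2 fell and 121 did not pass (11.03% called, against 11.7% of all 9841 genes). The median log2 ratio of these 136 was 0.06, against -0.003 over all genes. The share called is thus close to the background. With the replicate number as a block 33 of the 136 were called (24.3%, against 20.3% of all genes in that fit). Of the 7 lists, 6 are described below.

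Among 15 genes that bind or sever monomers and filaments, the group to which thymosins belong by function, 0 passed in limma. LIMK1, the kinase that inactivates cofilin, was at 0.38 ± 0.10 (adjusted p = 0.0570 in limma) and CORO1C, a coronin, at 0.65 ± 0.21 (0.0954). LIMK1 stood above background on 0 arrays in either channel. Profilin, which competes with thymosin for monomers, was at -0.09 for PFN1 and -0.12 for PFN2, both named after their values were seen. PFN1 stood above background on 0 arrays in either channel, so its value does not measure a lack of change. PFN2 stood above background on 8 arrays in both. Of 22 genes of nucleation and elongation 2 rose and 0 fell. FMNL1, a formin, rose by 1.33 ± 0.15 (1.48-fold with the floor used for TMSB10, higher on 7 of 7 arrays, adjusted p = 0.00281 in limma). ARPC5, a subunit of the Arp2/3 complex, rose by 0.75 ± 0.14 (8 of 8 arrays, adjusted p = 0.0142 in limma).

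Of 36 capping and crosslinking proteins 5 rose and 2 fell (19.4% called, against 11.7% of all genes and 0% to 15.8% of the other lists, a difference that was not tested). EZR, encoding ezrin, which ties filaments to the membrane, rose by 1.41 ± 0.10 (adjusted p = 0.000271 in limma). A second ezrin clone stood at 1.23. SPTAN1, spectrin α, rose by 0.76 ± 0.10 (adjusted p = 0.00326 in limma). FLNC, the muscle filamin, was lower at a log2 ratio of -1.93 ± 0.15 (adjusted p = 0.000308 in limma), with the derivative channel not above background on any array. With such a floor under the derivative channel it was 2.16-fold lower. CAPZB, which caps the fast-growing filament end, was lower at a log2 ratio of -0.77 ± 0.10 (adjusted p = 0.00292 in limma). The other 3 rises, outside the naming rule, were those of the adhesion proteins paxillin (PXN, 1.47-fold with the floor), LASP1 and vinculin (VCL), at 0.94, 0.98 and 1.12. EZR and SPTAN1 were higher, and FLNC and CAPZB lower, on 8 of 8 arrays.

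Of 21 genes for tropomyosins, myosins and other smooth muscle proteins 2 rose and 0 fell. MYL6, a myosin light chain, rose by 0.89 ± 0.10 (adjusted p = 0.00131 in limma) and MYH9, the non-muscle myosin heavy chain, by 0.87 ± 0.13 (adjusted p = 0.00524 in limma), both on 8 of 8 arrays. These 2 are non-muscle or widely expressed genes.

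Of 11 genes for actin folding 0 passed in limma. PFDN6, a prefoldin subunit, was at 0.44 ± 0.12 (adjusted p = 0.0502 in limma) and CCT3, a subunit of the chaperonin that folds actin, at -0.29 ± 0.10 (0.104). Of 12 muscle genes linked to cardiac actin 1 passed, cardiac troponin I (TNNI3), at 0.72 ± 0.15 (1.11-fold higher with the floor, adjusted p = 0.0198 in limma). Dystrophin (DMD), at -0.31 ± 0.13 (adjusted p = 0.168 in limma), was next by p.

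**Figure D5:**
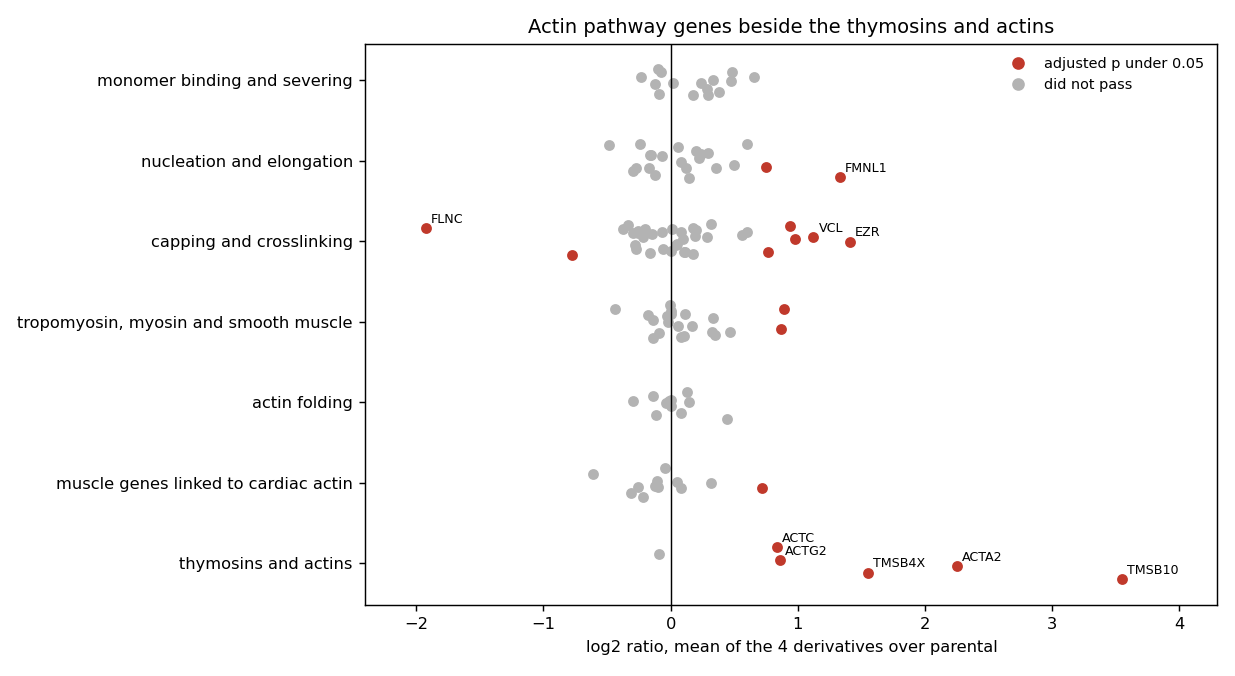
Log2 ratio of the mean of the 4 derivatives over parental cells (horizontal axis) for each measured gene of 6 of the 7 actin pathway lists and, in the bottom row, the thymosins and actins; vertical scatter within a row has no meaning. Red points passed an adjusted p of 0.05 in limma: 10 higher and 2 lower of the 117 listed genes plotted, against 5 of 6 in the bottom row, whose genes were chosen with results known.

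Markers of other cell types were read beside ACTA2 and ACTG2, since both actins are high in smooth muscle and ACTA2 in myofibroblasts. Of 6 measured smooth muscle markers 0 rose and 0 fell in limma. Over all 9841 genes 673 rose and 481 fell (11.7% called). CNN1, DES and MYLK did not stand above the empty spots in either channel on any array, and MYH11 did on 3 of 8 in the derivative channel and on 0 of 8 in the parental channel. SMTN, encoding smoothelin, was at 0.33 ± 0.12 (higher on 7 of 8 arrays, adjusted p = 0.141 in limma). It was above background on 5 arrays in the derivatives and 1 in parental cells. LMOD1, a leiomodin, was at -0.44 ± 0.16 (adjusted p = 0.119 in limma), above background on 0 arrays in the derivatives and 1 in parental cells. The next clones of MYLK and SMTN by brightness stood at -0.73 and 0.19. The summed reading of the 6 ran from 783 to 2961 in the derivatives, against 326 to 1989 in parental cells. Of 10 measured fibroblast markers 0 rose and 4 fell (40% called, against 11.7% of all genes, a difference that was not tested). Those that fell were the collagens COL3A1 at -2.60 and COL1A2 at -2.18, lumican (LUM) at -1.97 and PDGFRB at -0.84. With a floor under its derivative channel PDGFRB was 1.49-fold lower. Of those that did not pass, THY1 was at 0.83 ± 0.24 (higher on 7 of 8 arrays, adjusted p = 0.0630 in limma). It was above background on 6 arrays in the derivatives and 2 in parental cells. FAP was at 0.32 and FN1 at 0.29, while DCN was at -0.32, COL1A1 at -0.19 and PDGFRA at -0.03. FAP and DCN stood above background on 0 arrays in either channel, and FN1 on 5 in the derivatives and 1 in parental cells. The sum of the 10 ran from 1826.5 to 12863 in the derivatives, against 1838 to 42793 in parental cells.

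Of 9 epithelial and ovarian carcinoma markers 1 passed (11.1%, against 11.7% of all genes). EPCAM was at 0.82 (adjusted p = 0.0316 in limma), with the parental channel above background on 0 arrays and the derivative on 2, and no fold is given. Its estimates were 0.01 in CPR20, 0.05 in CPR40, 0.83 in CPR55 and 2.38 in CPR70, a difference among derivatives that did not pass. KRT18 was at 1.54 (adjusted p = 0.0674 in limma) and above background on 8 arrays in the derivatives and 4 in parental cells. KRT8, CDH1, PAX8 and WT1 were above background on at most 2 arrays in either channel. KRT18 was the only one of the 9 above background on more than 2 arrays in either channel. The sum of the 9 ran from 1576 to 35691 in the derivatives, against 393 to 15181 in parental cells. Of 7 blood and endothelial markers 0 passed in limma, with sums of 1895 to 5159.5 against 1423 to 6727. The part of other cell types in the rise of ACTA2 was not tested beyond these readings.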

How the data were processed

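Total RNA of each derivative (Cy5) and of parental CPR00 (Cy3) was hybridised to 8 arrays, per the labels. The authors deposited spot intensities on a linear scale without background columns, a calibrated ratio and a spot area (unit not stated). The image software is not given in the sources used here. That ratio, checked on the values, is red over green times 1 constant per array. The deposited log2 table equals log2 of this ratio (largest difference 5e-05) and is not centred, with column medians from -0.5004 to 0.407. A further 8 value columns that no sample label matches were not used.

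An offset of 50 was added to each channel, spots not found (area 0) were treated as missing, log2 ratios were normalised by loess within each array, and spots of a clone were averaged. Clones measured on 1 array or more of every derivative (13186, with 154 left out) were fitted with limma 3.58.1 in R 4.3.3 as 4 group means. Adjusted p-values are Benjamini-Hochberg over all these clones, and errors are standard errors unless marked SD. The fit was tested on simulated data. Parental RNA is the other channel of every array, so its own spread is left out, and a gene's own dye bias would add to each comparison with it. Between 12759 and 14373 of 14427 clone spots were found per array, and log2 ratios of the 2 arrays of a derivative correlated at 0.292 to 0.417 across clones. The number of arrays limits the precision. Gene positions and symbols are those of RefSeq, GRCh38.p14.

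Deviations from the group means of arrays with the same replicate number correlated at 0.258 to 0.369 across 10807 clones in all 6 pairs, so the numbers were taken to pair the arrays. This pairing comes from the data, not from the labels. The genes, lists and comparisons were chosen with earlier results of these data known. Named are all members, per list up to 4 called genes with the smallest p (2 that did not pass where fewer than 2 were called), and the 5 clones nearest to TMSB10, TMSB4X and ACTA2. Some items these rules name are not reported here. For each list gene the clone of highest mean brightness was used. Alternatives were other offsets, normalisations, filters, spread models, a replicate block, and arrays left out.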

Additional observations from a re-analysis of the deposited data

How the results depend on the processing

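The calls of TMSB10, TMSB4X and ACTA2 in the mean kept their direction and stayed under an adjusted p of 0.05 under all 18, 20 and 20 alternatives run for them. ACTG2 lost its call in the mean under 8 of 20 and ACTC under 2 of 20, as given above, and the causes were not tested. With 2 arrays a derivative, counts of called clones moved widely. In the mean 1444 clones were called, against 725 with median centring, 286 with the authors' calibrated ratio and 2547 with the replicate block, and 764 to 1211 leaving out each array (lowest without CPR20 replicate 2). In CPR20 (68) the count was 33 with no offset, 16 with median centring, 108 with scaling between arrays, 0 with the calibrated ratio, 145 with the filter on dim clones and 171 with the replicate block, and 5 (without CPR20 replicate 2) to 74 leaving out an array. In CPR40 (80) it was 51, 27, 39, 2, 163 and 205 under the same settings, 41 with normexp, and 29 (without CPR40 replicate 2) to 88. In CPR55 (83) it was 31 with median centring, 2 with the calibrated ratio, 196 with the dim filter, 141 with a trend in the spread and 172 with the replicate block, and 17 (without CPR55 replicate 1) to 134 (without CPR55 replicate 2). In CPR70 (189) it was 80 with median centring, 120 with scaling, 5 with the calibrated ratio, 328 with the dim filter and 486 with the replicate block, and 7 (without CPR70 replicate 2) to 177. CPR70 minus CPR20 gave 0 to 12 clones leaving out an array (12 without CPR70 replicate 1). The 15 actin pathway genes called of 136 became 6 with the calibrated ratio (4.41%, against 2.33% of all genes), 26 of 79 with the dim filter (32.9%, against 30.9%), 33 with the replicate block (24.3%, against 20.3%) and 28 of 135 in the replicate 2 arrays alone (20.7%, against 17.2%), and 10 to 15 leaving out an array. The replicate block, the paired analysis, removed no call of the 6 clones and added those given above.

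Signs turned only for estimates that did not pass. In the mean, ACTB was at 0.049 with median centring and at 0.092 from replicate 2 arrays alone. It was at 0.18 in CPR20 with median centring, and at -0.0021 in CPR70 with normexp. Leaving out an array moved ACTB between -0.19 and 0.0049 in the mean, -0.30 and 0.13 in CPR20, -0.48 and 0.18 in CPR40, -0.33 and 0.071 in CPR55, and -0.38 and 0.39 in CPR70. It moved CPR70 minus CPR20 between -0.33 and 1.07 for TMSB4X, -0.61 and 0.13 for ACTA2, -0.66 and 0.24 for ACTG2, -0.30 and 0.48 for ACTB, and -0.11 and 0.62 for ACTC. The thymosin minus actin difference as read was 1.53 to 1.64 leaving out an array, and has no value without CPR55 replicate 2. Spots taken one by one were not run, since each member clone was printed at 1 spot.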
